A study of Mus musculus with 4 samples.

Results

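C/D box small nucleolar RNAs were taken as every row of the 4 count tables whose gene symbol begins with Snord, which gave 94 of 49997 rows. The tables come from total RNA of iMOP cells, an immortalized wild-type line of mouse inner ear progenitors, so that all libraries come from 1 cell line. Proliferating iMOP cells were grown in DMEM/F12 with B27 and basic FGF at 20 ng/ml (2 libraries), and iMOP-derived neurons in Neurobasal medium with N21 and 1 µM K03861, an inhibitor of the kinase CDK2 (2 libraries). The groups therefore differed in medium, growth factor and inhibitor together. The titles call the libraries biological replicates 1 and 2 and give both replicate 2 libraries the words "set 2". What a set is was not given in the sources used here. Separate cultures are not described, so p-values speak to the spread between libraries and not between cultures. The edgeR fits also draw each gene's spread toward that of all tested genes. Standard errors and p-values of single members therefore rest in part on other genes. Ribosomal RNA had been depleted and libraries were stranded. No size selection for small RNA is named in the labels.

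C/D box snoRNAs are short nucleolar RNAs held by fibrillarin, Nop56, Nop58 and Snu13. Most of them guide 2′-O-methylation of ribosomal RNA through a stretch that pairs with the target just upstream of a box D, and a few, such as U3, U8, U13, U14 and U22, serve pre-ribosomal RNA processing or other modification of it. In mammals the majority are cut from introns of host genes, many of which encode ribosomal proteins or other parts of the translation machinery. U3 rows carry the prefix Rnu3 and therefore lie outside the 94 rows.

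The transcripts of 92 members were matched by symbol in GENCODE M21 (build GRCm38, also called mm10), and Snord94 and Snord73b were not matched. The 2 members with the highest mean CPM are shown first, to give the letters behind the leading counts. Capitals mark box C (TGATGA, where it lay within the first 20 bases) and the last box D (CTGA). Snord49a lies at chr11:62603450-62603521 (plus strand) within the span of the noncoding gene 2410006H16Rik, and Snord118 at chr11:69073427-69073561 (plus strand) in no gene span.
Snord49a: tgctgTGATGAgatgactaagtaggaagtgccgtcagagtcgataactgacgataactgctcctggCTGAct
Snord118: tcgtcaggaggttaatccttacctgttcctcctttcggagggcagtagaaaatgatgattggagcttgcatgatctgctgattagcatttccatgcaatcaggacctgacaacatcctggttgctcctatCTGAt

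The motifs were searched on the transcript strand. TGATGA occurred within the first 20 bases of 64 of 92 members (69.6%) and in 0 of 39 H/ACA rows, the other main class of snoRNA, whose symbols begin with Snora. TGATG, which lies inside TGATGA, occurred within the first 30 bases of 82 of 92 members. CTGA occurred within the last 20 bases of 90 of 92 members (97.8%) and of 4 of 39 H/ACA rows (10.3%). Matched lengths ran from 64 to 238 bases with a median of 86.0.

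A stretch of at least 11 bases that ended at most 3 bases before a CTGA and paired with the 18S transcript was found in 7 of 92 members and in 0 of 39 H/ACA rows. RefSeq gives Gm42418, the transcript used, as a synonym of the 18S row Rn18s-rs5. Whether this transcript spans the whole of the 18S ribosomal RNA was not tested. Members that pair outside it could not be found, and base numbers are those of the transcript. The 7 were Snord61, Snord59a, Snord98, Snord110, Snord82, Snord19 and Snord71. The longest stretches, of 13 bases, were in Snord61 (chrX:57391449-57391519, minus strand, within Rbmx), against bases 840 to 852 of the 1831-base transcript, and in Snord59a (chr10:128084143-128084216, plus strand, within Atp5b), against bases 429 to 441. Here the capitals mark the pairing stretch, and Snord82 (chr1:86356261-86356330, minus strand, within Ncl) is added as the most abundant of the 7. The match describes letters and does not show a modified site.
Snord61: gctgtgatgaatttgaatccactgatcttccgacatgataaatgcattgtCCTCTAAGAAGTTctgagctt
Snord59a: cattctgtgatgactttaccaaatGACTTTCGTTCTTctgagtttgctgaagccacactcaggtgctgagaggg
Snord82: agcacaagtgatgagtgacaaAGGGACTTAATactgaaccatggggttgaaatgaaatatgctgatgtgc

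Some members are near copies of each other. Whether a read that matches more than 1 of them entered the counts is not given in the sources used here. Snord14c (chr9:40803583-40803668) and Snord14d (chr9:40803995-40804080), both on the plus strand within Hspa8, were identical at 84 of 86 aligned positions. Snord1b and Snord1c matched at 74 of 76, and Snord88a and Snord88c at 85 of 90. The split of counts within these pairs is uncertain. The Snord14 pair is shown with its boxes in capitals.
Snord14c: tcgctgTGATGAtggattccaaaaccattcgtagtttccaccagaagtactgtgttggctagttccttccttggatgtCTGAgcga
Snord14d: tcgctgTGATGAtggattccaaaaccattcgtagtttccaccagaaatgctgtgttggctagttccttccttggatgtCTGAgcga

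The deposited counts summed to between 7446361 and 14484011 per library. The 18S row alone took 53.3% and 74.99% of them in proliferating replicates 1 and 2, and 59.4% and 76.1% in neuron replicates 1 and 2, so it was higher in set 2 of both groups. The scaling factors (TMM) ran from 0.679 to 1.64. Fixed markers did not divide the libraries by label alone. The summed CPM (counts divided by the scaled library size) was taken over 4 markers listed for proliferating cells (Mki67, Top2a, Ccnb1, Sox2). It was 296 and 82.9 in proliferating replicates 1 and 2 and 375 and 203 in neuron replicates 1 and 2. Sox2 gave 47.9 of the 82.9 in proliferating replicate 2. That of 7 neuronal markers (Tubb3, Elavl3, Elavl4, Map2, Dcx, Rbfox3, Neurod1) was 161 and 336 in the proliferating libraries and 199 and 356 in the neurons. The sum was higher in neurons within each set and higher in set 2 within each group. Single markers differed. In set 1 Ccnb1 was lower in neurons and Mki67, Top2a and Sox2 higher. Sox2 was lower in neurons of set 2 (22.0 against 47.9 CPM), where Mki67, Top2a and Ccnb1 were higher. Of the neuronal markers, Elavl3, Dcx, Rbfox3 and Neurod1 were lower in neurons of set 1 and Tubb3, Elavl4 and Map2 higher. In set 2 Tubb3 was lower in neurons (104 against 193 CPM) and the other neuronal markers were higher. The summed CPM of 5 glial markers was 130 and 109 in proliferating cells against 65.3 and 17.3 in neurons, with at most 2 counts of Mbp in any library. The part of these differences in the results was not tested.

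Snord rows together held 8.45% of the counts outside the 18S row in proliferating replicate 1 (95% Wilson interval 8.42 to 8.48) and 10.01% (9.978 to 10.05) in proliferating replicate 2. They held 10.8% (10.79 to 10.85) in neuron replicate 1 and 10.6% (10.56 to 10.63) in neuron replicate 2. The intervals cover counting error only, since reads without molecular identifiers are not independent molecules. Both neuron libraries lay above both proliferating libraries, and proliferating replicate 1 was the lowest. The mean was 9.23% ± 1.11 (SD, n = 2) in proliferating cells and 10.7% ± 0.158 (SD, n = 2) in neurons, with an exact two-sided permutation p of 0.333, the smallest that 2 against 2 libraries allow. The difference of 1.48 percentage points became 0.694 without proliferating replicate 1 and 2.26 without proliferating replicate 2. With the 18S row in the denominator the difference between groups was 0.242 percentage points.

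Between the replicate sets the share was 9.63% ± 1.68 (SD, n = 2) in set 1 and 10.3% ± 0.412 (SD, n = 2) in set 2, and the sets overlapped (exact two-sided permutation p = 1.0). Without proliferating replicate 1 the difference of 0.673 percentage points turned to -0.515, and without neuron replicate 1 it was 1.86. With the 18S row included the difference between sets turned from 0.673 to -1.65 percentage points. H/ACA rows took 3.31% and 3.397% of counts without the 18S row in proliferating cells and 3.46% and 3.48% in neurons. U3 rows took 4.43% and 4.86% in proliferating cells and 5.32% and 3.53% in neurons, and here the groups overlapped. Counts of Snord rows were 2.55 to 3.13 times those of H/ACA rows in the 4 libraries. A share can rise when a type of cell is more frequent, when each cell holds more of the RNA or when other RNAs fall. Recovery of short RNAs may also differ between libraries, and bulk libraries cannot tell these apart.

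**Figure D1:**
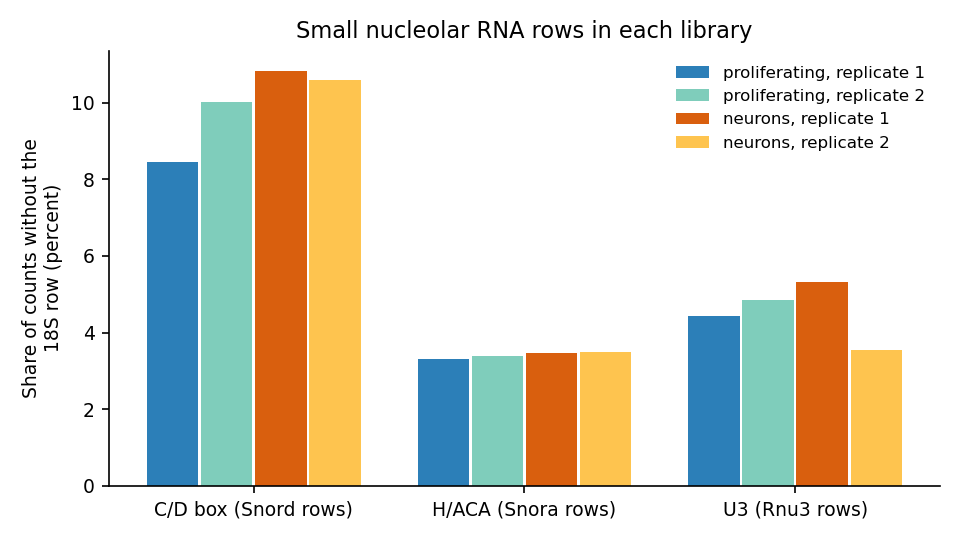
Share of counts without the 18S row (percent, y axis) taken by C/D box, H/ACA and U3 rows, with 1 bar per library. The C/D box share was lowest in proliferating replicate 1 (8.45%) and 10.01% to 10.8% in the other libraries, while the H/ACA share lay between 3.31% and 3.48%.

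Of the 94 rows, 71 had at least 1 count and 23 were listed at 0 in all 4 libraries. The gene filter kept 70 for testing, all but Snord116l14 among the counted rows. A handful of members carried the class. Snord49a alone made up 14.8% and 16.3% of Snord counts in proliferating replicates 1 and 2 and 15.8% and 19.9% in neuron replicates 1 and 2. The 10 leading members of each library made up 61.4% to 66.8%.

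Snord49a had 43505 and 42387 counts in proliferating replicates 1 and 2 and 65801 and 73027 in neuron replicates 1 and 2. In CPM these were 3564 and 5721 against 5519 and 7424. The lower neuron library lay below the higher proliferating one, so the groups overlapped in CPM. In share of counts without the 18S row, Snord49a had both neuron libraries above both proliferating libraries, as did 7.85% of all tested genes. Its log2 fold change in neurons was 0.48 (SE 0.36) and did not pass the test (adjusted p = 1.00, edgeR quasi-likelihood).

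Snord118, the U8 RNA needed for maturation of the large-subunit ribosomal RNAs, was second in mean CPM. In both proliferating libraries Snord55 had more counts, with 31241 and 27786 against 26185 and 25484. The CPM of Snord118 was 2145 and 3440 in proliferating replicates 1 and 2 and 4911 and 4086 in neuron replicates 1 and 2. Both neuron libraries were higher than both proliferating libraries. The log2 fold change was 0.69 (SE 0.37), with an unadjusted p of 0.10 and an adjusted p of 1.00 in edgeR's quasi-likelihood test over 12783 genes. The difference was 1.19 on the log2 scale within replicate pair 1 and 0.25 within pair 2. Without proliferating replicate 2 the log2 fold change was 1.07. That fit left proliferating replicate 1, the lowest library for Snord118, as the whole proliferating group.

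Snord55, a methylation guide, had a CPM of 2560 and 3751 in proliferating cells and 3434 and 3691 in neurons. The proliferating libraries enclosed both neuron libraries. Its log2 fold change of 0.18 (SE 0.35) was the one with the smallest error among the members.

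The next members by mean CPM were Snord82, Snord65, Snord13, Snord21, Snord49b, Snord43, Snord15b, Snord15a, Snord37, Snord83b, Snord22 and Snord104. Snord82 had 929 and 1520 CPM in proliferating cells and 1390 and 1582 in neurons. Among these 12 members, Snord43 alone had both neuron libraries (1215 and 1224 CPM) above both proliferating libraries (1059 and 1087 CPM). Of all tested genes, 12.9% had this order in CPM. The log2 fold change of Snord43 was 0.19 (SE 0.35). This order depended on the scaling. In share of counts without the 18S row Snord43 overlapped, while Snord65, Snord21, Snord49b and Snord15b had both neuron libraries above both proliferating libraries. In that share 7.85% of all tested genes did so. For all 15 leading members proliferating replicate 1 was the lowest library in CPM.

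**Figure D2:**
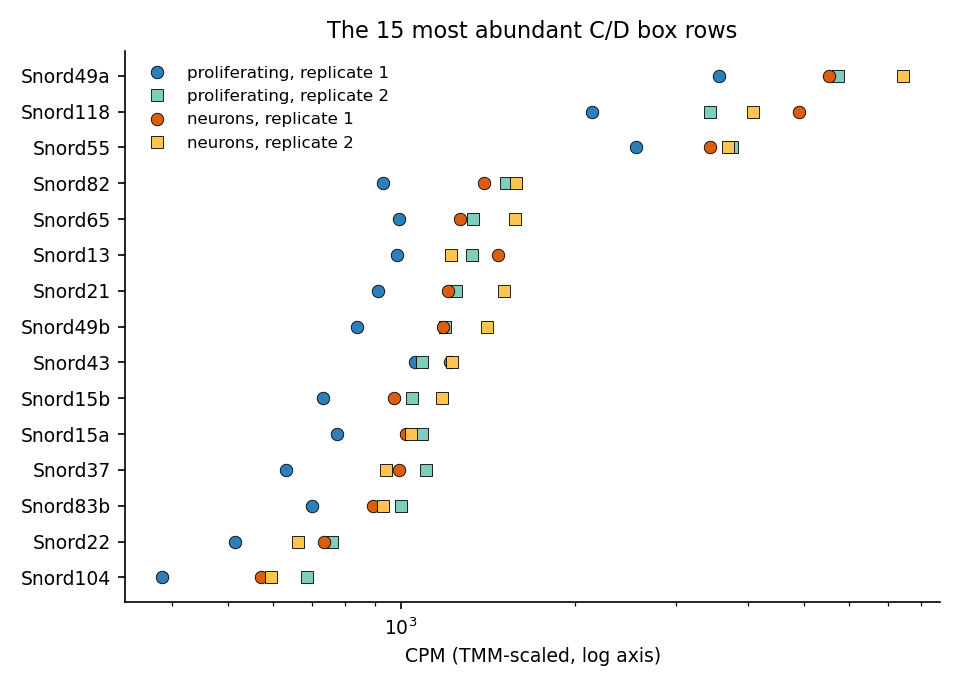
CPM with TMM scaling (log axis) of the 15 most abundant C/D box rows, with 1 point per library. Proliferating replicate 1 is the leftmost point in every row, and on this scale the groups overlap in all rows but Snord118 and Snord43. Of all tested genes, 12.9% had both neuron libraries above both proliferating libraries in CPM.

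Levels between members are compared per length, in the deposited RPKM (counts divided by gene length and library total). By mean RPKM the order began with Snord49a (88363), Snord55 (43911), Snord118 (27238), Snord43 (25373) and Snord65 (22958). In RPKM Snord49a led in each library, from 65876 in proliferating replicate 2 to 112022 in neuron replicate 1. These levels depend on the length used. Snord43 was divided by 48 bases, while its GENCODE transcript has 108. The length implied by counts and RPKM equalled the RefSeq length for 67 of 71 members. It was 4 times that length for Snord52, 3 times for Snord85 and 2 times for Snord96a and Snord95, whose RPKM is understated by the same factor. Ratios between libraries are not affected.

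Between neurons and proliferating cells 0 of 70 tested members were called in either direction, where 0.00% of the 12783 tested genes were called in each direction (edgeR quasi-likelihood, adjusted p under 0.05). At an unadjusted p under 0.05 it was also 0 of 70 members, against 0.915% of all genes higher and 2.51% lower. DESeq2 likewise called 0 members and called 12 genes higher and 47 lower. The members' log2 fold changes ran from -0.18 to 0.69 with a median of 0.14, and 57 were above zero and 13 below, where 52.0% of all genes were above zero. The median over all tested genes was 0.02 and over 33 tested H/ACA rows 0.12. Standard errors of members ran from 0.35 to 1.07.

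The excess of members above zero rested on proliferating replicate 1. This library was the lowest of the 4 in CPM for 59 of 70 members, against 20.3% of all genes, and the lowest in share of counts without the 18S row for 31 of 70, against 10.6%. Without it 24 of 70 members were above zero and the median was -0.09. Without proliferating replicate 2 it was 68 of 70 and 0.41. On the log2(RPKM + 1) scale, which keeps the 18S row in the library size, 26 of 70 were above zero and the median was -0.05. With the library size taken without the 18S row it was 45 of 70 and 0.07.

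The 2 replicate pairs, read as neuron minus proliferating on the log2 CPM scale, gave different pictures. In pair 1, 62 of 70 members were higher in neurons (50.0% of all genes) with a median of 0.38. In pair 2 it was 33 of 70 (53.3% of all genes) with a median of -0.04. Higher in both pairs were 26 members, against 28.8% of all genes, and lower in both was 1, against 25.5%. Both neuron libraries exceeded both proliferating libraries for 13 of 70 members, where 12.9% of all genes did so. The reverse order held for 0 members and 14.5% of genes. In share of counts without the 18S row the groups did not overlap for 15 members higher in neurons (7.85% of genes) and 3 lower (21.3%).

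The largest differences that had the same sign in both pairs were those of Snord90, Snord118, Snord111, Snord49a and Snord66. Snord90, within Rc3h2, had 36.5 and 29.6 CPM in proliferating replicates 1 and 2 and 42.7 and 64.0 in neuron replicates 1 and 2. All neuron values were above all proliferating values, with a log2 fold change of 0.69 (SE 0.46). Snord111, within Sf3b3, had 38.6 and 41.4 CPM against 60.4 and 65.4, with close replicates in both groups. Its log2 fold change was 0.65 (SE 0.43, unadjusted p = 0.172, adjusted p = 1.00, edgeR). Snord66, within Eif4g1, had 67.3 and 85.2 CPM against 102.8 and 103.0, and a log2 fold change of 0.43 (SE 0.43).

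Snord61, within Rbmx, was the 1 member lower in neurons in both pairs. It had 29.99 and 47.4 CPM in proliferating replicates 1 and 2 and 29.2 and 41.8 in neuron replicates 1 and 2. The difference between replicates was larger than that between groups, and the log2 fold change was -0.12 (SE 0.48). For Snord14e the pairs had opposite signs, with a log2 difference of 0.52 in pair 1 and -0.65 in pair 2.

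**Figure D3:**
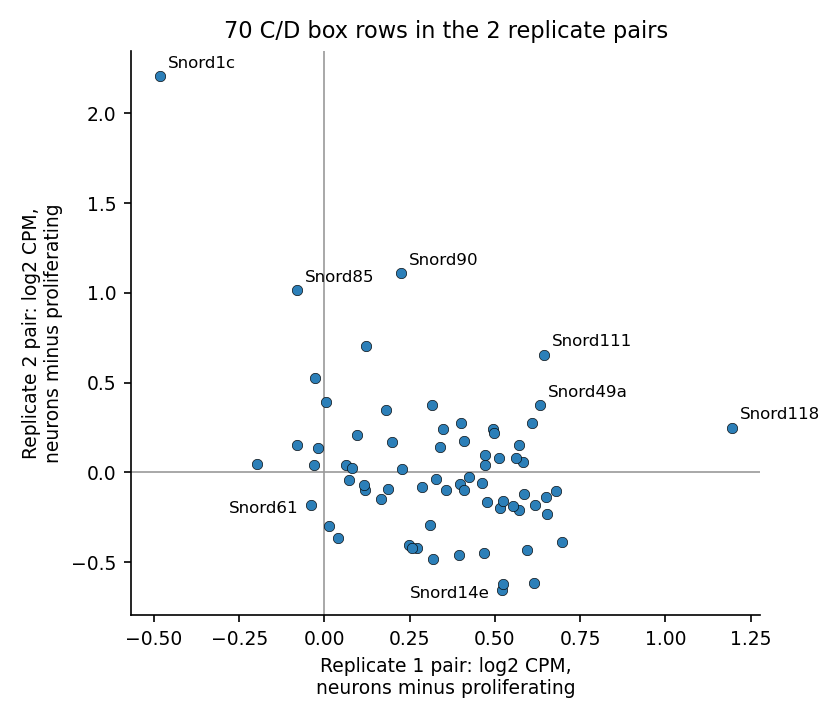
Log2 CPM difference, neurons minus proliferating, of the 70 tested C/D box rows in replicate pair 1 (x axis) and pair 2 (y axis), with 1 point per row. In pair 1, 62 of 70 points lie above zero and in pair 2, 33 of 70; Snord118, Snord49a, Snord111 and Snord90 are above zero in both.

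Members with a part in ribosome assembly were fixed as a list of 7, and all were tested. Of these, 4 had log2 fold changes above zero and 3 below, with 0 called and a median of 0.07. Snord13, the U13 RNA required for acetylation of the small-subunit ribosomal RNA, had 984 and 1325 CPM in proliferating cells and 1476 and 1220 in neurons, and the groups overlapped. The log2 fold change of Snord13 was 0.22 (SE 0.37).

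Snord22, the U22 RNA of small-subunit maturation, had 515 and 759 CPM in proliferating cells and 735 and 662 in neurons. The U14 RNAs pair with 18S ribosomal RNA during early processing. Snord14e, their most abundant copy, had 271 and 452 CPM against 389 and 287, and Snord14a, the copy in Rps13, had 254 and 343 against 261 and 266. Each of these had a log2 fold change smaller than its standard error, the largest in size being -0.18 (SE 0.41) for Snord14a. The log2 fold change was 0.07 (SE 0.46) for Snord14d and -0.04 (SE 0.48) for Snord14c.

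The symbols of the imprinted region on chromosome 7 gave a near-empty picture. Snord116, lost in Prader-Willi syndrome and known from neurons, had 17 rows, of which 14 shared 1 sequence and which held 4 distinct sequences in all. The only count was 1, for Snord116l14 in neuron replicate 2, and the other 16 rows were at 0. Snhg14, the gene whose span holds them, had 61 and 11 counts in proliferating replicates 1 and 2 and 59 and 28 in neuron replicates 1 and 2. Snrpn and Snurf, upstream in the same region, were listed at 0 in all libraries. How reads that fit more than 1 gene were counted is not given in the sources used here, so a 0 need not mean an absent transcript. The part of sequence shared between copies in these counts was not tested, and the 3 rows outside the group of 14 held that 1 count between them. Snord64, another row of this list, had 9.50 and 12.0 CPM against 13.5 and 14.0 and a log2 fold change of 0.36 (SE 0.47).

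The other 7 members at 0 were Snord1a, Snord123, Snord7, Snord91a, Snord45c, Snord47 and Snord87. Of these, 3 overlapped an exon of another gene on the same strand, and so did 31 of 69 matched members that had counts. A count of 0 allows up to 3 counts per library.

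Of the 92 matched members, 89 lay within the span of another gene on the same strand and 3 (Snord118, Snord13 and Snord104) did not. The hosts were 52 genes. Protein-coding genes hosted 56 members, of which 24 lay in ribosomal protein genes (Rack1 included), and noncoding genes hosted 33. Among tested members, the 24 in ribosomal protein genes held 38.9% and 36.7% of Snord counts in proliferating cells and 34.4% and 34.6% in neurons. The 11 in noncoding hosts held 28.3% and 29.2% against 28.6% and 32.7%. The 3 without a host held 14.6% and 15.5% against 19.9% and 15.8%. The median log2 fold change in neurons was 0.16 for the ribosomal protein hosts, 0.19 for noncoding hosts and 0.12 for the 30 members in other protein-coding genes, and 0 were called in any of them.

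Members of 1 host differed in level, and their order was much the same from library to library. There were 14 hosts with at least 2 tested members, 33 members in all. The order by RPKM was the same in all 4 libraries for 12 hosts, and the leading member for 13. In 2410006H16Rik, Snord49a exceeded Snord49b 4.32- to 5.35-fold in RPKM. In Hspa8, Snord14e exceeded Snord14c 3.23- to 3.51-fold.

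The exceptions were Rps3, where Snord15b was 0.966 to 1.15 times Snord15a, and Rpl13a, where the middle of the order shifted while Snord34 stayed above Snord33 by 8.16- to 12.7-fold. Snord1b exceeded its near copy Snord1c 12.7- to 346-fold, and Snord1c had 31, 1, 21 and 13 counts (proliferating replicates 1 and 2, neuron replicates 1 and 2). With GENCODE lengths in place of those behind the RPKM, a choice made after seeing the data, the same member led on average in 14 of 14 hosts and led in all 4 libraries in 12. Whether members of 1 host differ in synthesis, stability or recovery was not tested.

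**Figure D4:**
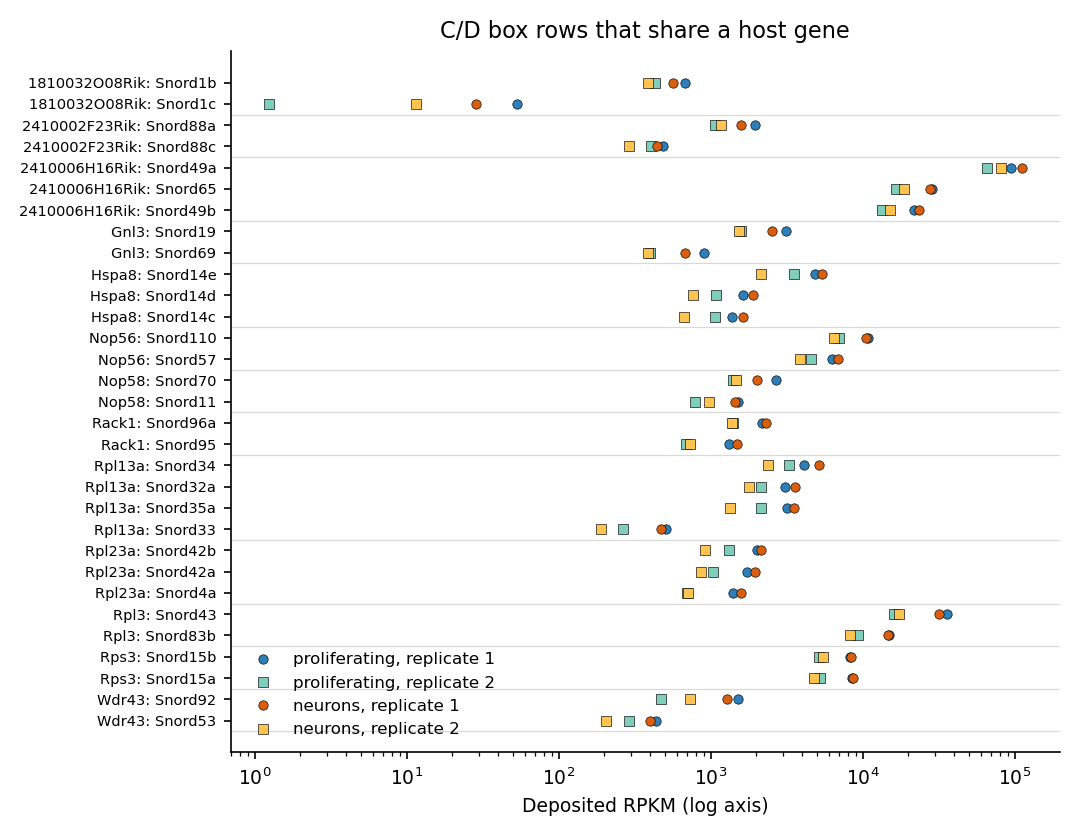
Deposited RPKM (log axis) of 31 of the 33 tested C/D box rows that share a host gene, grouped by host, with 1 point per library. Snord49a lies above Snord65 and Snord49b in all 4 libraries, while Snord15b and Snord15a lie together.

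Host genes varied more between libraries than the members inside them. Over 61 members with a tested host (43 hosts), the median log2 range of CPM over the 4 libraries was 0.58 for members and 0.95 for hosts, and the host's range was the larger one for 49 of 61. The median log2 range over all tested genes was 1.16, above that of the hosts. Hosts had fewer counts than members, with a median of 336.0. Among 14 hosts with a mean of at least 500 counts the host's range was larger for 16 of 22 members. The part of depth in this was not tested. Ncl, which encodes nucleolin, had 3542 and 947 counts in proliferating replicates 1 and 2 and 4319 and 2008 in neuron replicates 1 and 2. Snord82 within it had 11338 and 11260 against 16571 and 15563. The host's raw count was lower in the replicate 2 library of each group, while its snoRNA had nearly the same raw count in both replicates. Scaled to CPM, Snord82 had 929 and 1520 in proliferating replicates 1 and 2 and 1390 and 1582 in neuron replicates 1 and 2. In CPM the ranges were 1.501 for Ncl and 0.77 for Snord82 on the log2 scale.

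Ckap5 had 1077 and 161 counts against 1080 and 578, and its Snord67 had 968 and 592 against 927 and 1133. Nop58, itself a core protein of these particles, had 403 and 92 counts against 502 and 229, with a log2 range of 1.75, while its Snord70 and Snord11 had ranges of 0.42 and 0.63. Of the 43 tested hosts 30 had a log2 fold change above zero in neurons and 13 below, with a median of 0.07, a range from -0.98 to 0.65, and 0 called. Ncl, Ckap5 and Nop58 were lower in set 2. Of the 43 hosts, however, 24 were higher in set 2, with a median log2 fold change of 0.21 over all 43.

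**Figure D5:**
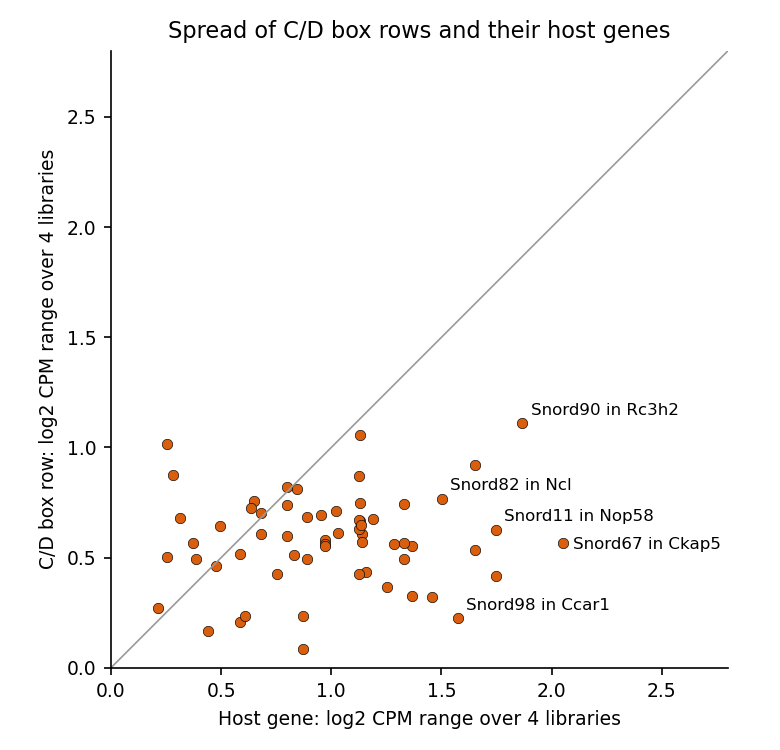
Log2 CPM range over the 4 libraries of the host gene (x axis) and of the C/D box row within it (y axis) for 61 rows, with a line where both are equal. The row lies below the line for 49 of 61, among them Snord82 in Ncl, Snord67 in Ckap5 and Snord11 in Nop58.

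Over all tested members the spread was also small. The log2 range over the 4 libraries was under 1 for 65 of 70 members and for 33 of 33 H/ACA rows, against 40.9% of all genes, which had a median of 63.8 counts where members had 1331. The 5 members at or above 1 were Snord49a, Snord118, Snord90, Snord85 and Snord1c. The median absolute log2 difference between replicates was 0.49 in proliferating cells and 0.24 in neurons for members, and 0.73 and 0.47 for all genes. Across the 70 members, log2 CPM of any 2 libraries correlated with Pearson's r of 0.98 to 0.99, and across all genes with 0.78 to 0.92. These values describe genes that share libraries and are not independent replicates.

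Between the replicate sets 0 of 70 members were called in either direction, where 0.00% of genes were called each way (edgeR quasi-likelihood). At an unadjusted p under 0.05 it was 0 of 70, against 3.35% of genes higher and 5.98% lower, and DESeq2 called 0 members. The median log2 fold change of set 2 against set 1 was 0.23, with 65 of 70 members above zero (51.2% of all genes). The median was 0.03 over all genes and 0.20 over H/ACA rows. Both set 2 libraries exceeded both set 1 libraries in CPM for 34 of 70 members, against 22.8% of genes, and the reverse held for 1, against 26.0%. Within both groups, 40 of 70 members were higher in set 2 (31.4% of genes) and 1 was lower (32.4%).

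The direction depended on the scaling. With library size taken without the 18S row the members' median was 0.02 and 39 of 70 were above zero, while on the log2(RPKM + 1) scale it was -0.83, all 70 were below zero and 25 were called lower (limma), where 18.7% of the 12783 genes were called lower. In share of counts without the 18S row the sets did not overlap for 11 members higher (12.5% of genes) and 8 lower (34.3%). The authors' RPKM divide by totals that hold the 18S row, which was larger in set 2. Without neuron replicate 1 the median was 0.43, and without proliferating replicate 1 it was 0.09.

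The largest differences toward set 2 that held in both groups were those of Snord71, Snord88c, Snord61, Snord49a and Snord1b. Snord71, within Ap1g1, had 38.5 and 51.3 CPM in set 1 (proliferating, then neurons) and 70.9 and 66.3 in set 2, and the sets did not overlap. Its log2 fold change was 0.61 (SE 0.35), with an unadjusted p of 0.127 in the edgeR fit. Snord61 had 29.99 and 29.2 CPM in set 1 and 47.4 and 41.8 in set 2, with a log2 fold change of 0.59 (SE 0.34). On the log2(RPKM + 1) scale both lost this direction.

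Snord1c was the 1 member lower in set 2 in both groups, with 2.54 and 1.76 CPM in set 1 and 0.135 and 1.32 in set 2. The log2 fold change was -1.48 (SE 0.88) and did not pass the test. Leaving out neuron replicate 2 left proliferating replicate 2, with its 1 count, as the whole of set 2, and the fold change of -3.88 then passed (adjusted p = 0.0391, edgeR). That made 1 of 70 members called lower, where 10.3% of the 12783 genes were called lower in this fit. The lone library is assumed to vary like the others.

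Genes of the C/D particle were read from a list of 5 core proteins and 10 assembly factors. All 15 were tested and 0 were called, and 4 had log2 fold changes above zero in neurons and 11 below, with a median of -0.17. Fbl, the methyltransferase, had 12.4 and 18.8 CPM in proliferating replicates 1 and 2 and 14.9 and 12.6 in neuron replicates 1 and 2. The difference on the log2 scale was -0.17 (SE 0.48). Rrp9, the U3-specific protein, had 9.01 and 14.7 CPM against 5.87 and 7.52, with both neuron libraries lower and a log2 fold change of -0.82 (SE 0.51).

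Snu13, which binds the box C/D fold, had 2.54 and 3.51 CPM against 1.68 and 0.915, with at most 31 counts in a library. Its log2 fold change of -1.20 (SE 0.66) had the largest size on the list and did not pass (adjusted p = 1.00, edgeR). Of 8 genes of RNA polymerase I, the nucleolus and growth control, 7 were tested, with 2 above zero, 5 below and 0 called. Myc had the largest fall, with 1148 and 947 CPM in proliferating cells against 399 and 673 in neurons. Its log2 fold change was -0.97 (SE 0.42), with an unadjusted p of 0.0525 in the edgeR fit. The cells are Myc-immortalized, and whether introduced Myc sequence adds to this row was not tested. Npm1 had the largest rise, with a log2 fold change of 1.07 (SE 0.62).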

How the data were processed

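For each of 4 libraries the authors deposited a table of raw counts and a table of RPKM. The deposited counts are not normalized, and the deposited RPKM equal the count divided by the total, 18S row included, and by 1 length per gene. The submitters' processing notes name HISAT2, SAMtools, featureCounts, DESeq2, deepTools 3.4.3 and the build mm10, without their roles. The annotation, the strand setting and the treatment of reads with several matches are not given in the sources used here.

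The titles gave the groups and the replicate numbers. Counts were tested in R 4.3.3 with edgeR 4.0.16 (TMM, filterByExpr with a minimum count of 10 and a minimum total of 15, glmQLFit, glmQLFTest) on all 4 libraries. The group was the single term for 1 comparison and the replicate number for the other. The filter kept 12783 genes, p-values were adjusted over all of them by Benjamini-Hochberg, and calls had an adjusted p under 0.05, two-sided. CPM use the TMM-scaled library size, SD is over 2 libraries, and differences within a pair use log2 CPM (prior count 2). Alternatives were RLE factors, library size without the 18S row, other gene filters, the 18S row left out, DESeq2 1.42.0, the replicate block (or the group as a second term), limma 3.58.1 on log2(RPKM + 0.1) or log2(RPKM + 1), and leaving out each library. Shares, permutation tests, sequences and figures used Python 3.11.15 with pandas 2.3.3, scipy 1.17.1, Biopython 1.88 and matplotlib 3.10.9. Percent identity and host spans come from GENCODE M21 and names from RefSeq of GRCm38.p6, in which all 94 symbols matched.

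Named members were the 15 with the highest mean CPM, the 5 each way with the largest difference among those of 1 sign in both pairs (or both groups, for sets), and fixed lists of ribosome assembly, imprinted and host-cluster members. In the annotation, Snord49a lies in 2410006H16Rik and not in the Gas5 cluster where that list had placed it, and of the Gas5 and Snhg1 lists Snord47, Snord49a and Snord22 were present. Snord52, Snord85, Snord67, Snord70, Snord11 and others outside this rule were chosen after their values were seen. Values of 1 host and its members' comparison are not reported here. The members and lists were chosen with earlier results of these data known.

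Deviations of same-numbered libraries from their group means correlated with r = 0.33 across 12783 genes, and the words "set 2" mark a shared set. The numbers were therefore taken to pair the libraries in the differences within a pair. The main fit between groups has no term for the pairs, so its standard errors include the difference between sets. The replicate block was fitted as an alternative.

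The edgeR steps were tested on counts simulated for the comparison of neurons with proliferating cells, with 100 genes changed at each size. Every simulated gene had the same spread. With the spread estimated over all genes (biological coefficient of variation 0.456, 12099 genes fitted) the steps recovered 0% of the genes with a log2 change of 1. They recovered 64% of those with a change of 3. With a spread of 0.1 (12680 genes fitted) they recovered 98% and 100%. A spread estimated from the members alone was not used, so these values do not give the recovery for members.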

Additional observations from a re-analysis of the deposited data

How the results depend on the processing

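No member was called between groups by edgeR, DESeq2 or limma under the 13 alternatives, and the replicate block gave a members' median of 0.17. Over all genes, calls between groups (higher, then lower in neurons) were 41 and 122 without a gene filter, 12 and 47 with DESeq2, 0 and 3 with the replicate block, 0 and 2 on log2(RPKM + 0.1) and 0 and 1 on log2(RPKM + 1), and leaving out each library gave 1 to 54 higher and 9 to 106 lower. Between sets, calls were 23 and 31 with DESeq2 and 5 and 2389 on log2(RPKM + 1), and leaving out each library gave 0 to 488 higher and 0 to 1318 lower, the most without neuron replicate 2. Among members in the set comparison, log2(RPKM + 1) gave 25 called lower and a median of -0.83, and leaving out each library gave 0 to 1 called lower. On the log2(RPKM + 1) scale these members were called lower in set 2, with log2 fold changes of -0.49 (Snord49a), -0.84 (Snord118), -0.72 (Snord55), -0.60 (Snord82), -0.67 (Snord65), -0.97 (Snord13), -0.66 (Snord21), -0.66 (Snord49b), -1.02 (Snord43), -0.65 (Snord15b), -0.78 (Snord15a), -0.68 (Snord37), -0.76 (Snord83b) and -0.84 (Snord22), where edgeR on counts gave values above zero. This scale keeps the larger 18S counts of set 2 in the library size. The Snord share difference with the 18S row included was 0.242 percentage points between groups and -1.65 between sets. Without the 18S row, leaving out each library gave 0.694 to 2.26 points between groups and -0.515 to 1.86 between sets. Of 415 values of named members between groups under alternatives, 57 had another sign, over 21 members, and of 320 values between sets, 64 had another sign, over 31 of 32 members. With 2 libraries a group, members' standard errors of 0.35 to 1.07 on the log2 scale limit what could be detected.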
